A study of Mus musculus with 6 samples.

Results

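The cohesin genes described here encode the ring that holds sister chromatids together and the enzymes and protectors that act on it. They are 10 genes: the ring subunits Smc1a, Smc3, Rad21 and Stag2, the loader Nipbl, the acetyltransferases Esco1 and Esco2, the sororin gene Cdca5, and the shugoshin genes Sgo1 and Sgo2a. The list was chosen by role and also on measured values, because Esco2, Sgo1 and Sgo2a had been seen to be higher in mutant cartilage in the comparison used below. The differences between genotypes of these 10 genes are therefore given as a description with no p-value, and whether they passed the test across all genes is stated as a count only. All 10 were found by Ensembl identifier among 38924 genes listed and all 10 were among the 13333 genes with enough counts to be tested. The RNA was from the front part of the nasal septum, the cartilage wall between the nostrils, in C57BL/6 mouse embryos at embryonic day 14.5. The mutant group, called Apert here, had 3 mice of genotype Fgfr2+/S252W; EIIA-Cre, which carry 1 copy of a mutant fibroblast growth factor receptor that models Apert syndrome. The EIIa promoter drives Cre recombinase in the early embryo, so the mutation is not limited to cartilage. The comparison group had 3 mice labelled WT, with no allele or Cre named. Cartilage was cut from frozen head sections by laser capture, with 1 library per mouse, so tests measure the spread between 3 mice per genotype.

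Cohesin is a ring of SMC1, SMC3 and the RAD21 kleisin with a STAG subunit, and NIPBL loads it onto DNA. During DNA replication the acetyltransferases ESCO1 and ESCO2 modify SMC3, and sororin then keeps the ring from being released, so that sister chromatids stay joined until mitosis. In early mitosis most cohesin leaves the chromosome arms, while shugoshins bring the phosphatase PP2A to the centromere and protect the cohesin there until separase cuts RAD21. ESCO2 is the gene of Roberts syndrome and NIPBL, SMC1A, SMC3 and RAD21 are genes of Cornelia de Lange syndrome, both with changes of face and limbs in humans.

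The target of the acetyltransferases lies in the N-terminal part of SMC3. The stretch of the mouse Smc3 coding sequence from codon 100 to codon 111 (GENCODE M21, gene on chromosome 19) is shown with the acetylated lysine codons 105 and 106 in capitals, because the products of both acetyltransferase genes act there.
Smc3 codons: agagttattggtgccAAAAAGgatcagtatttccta

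Promoter windows from 250 bases before to 50 bases after the start were read from RefSeq (GRCm38.p6) for 5 of the 10 genes: Smc1a, Smc3, Sgo1, Sgo2a and Cdca5. Those of both shugoshin genes, of the sororin gene and of Smc3 are printed 5′ to 3′ on the gene's strand, to set the genes that were higher in Apert cartilage beside genes with smaller differences. Capitals mark matches, on either strand, to letters known from promoters of genes used in the cell cycle: the CHR letters TTTGAA or TTCGAA, the CCAAT box letters CCAAT, and the E2F letters TTTCCCGC, TTTGGCGC, TTTCGCGC or TTTGCCGC. The windows lie at chr17:53689266-53689565 (minus strand) for Sgo1, chr1:57995724-57996023 (plus) for Sgo2a, chr19:6084847-6085146 (plus) for Cdca5 and chr19:53600146-53600445 (plus) for Smc3.
Sgo1: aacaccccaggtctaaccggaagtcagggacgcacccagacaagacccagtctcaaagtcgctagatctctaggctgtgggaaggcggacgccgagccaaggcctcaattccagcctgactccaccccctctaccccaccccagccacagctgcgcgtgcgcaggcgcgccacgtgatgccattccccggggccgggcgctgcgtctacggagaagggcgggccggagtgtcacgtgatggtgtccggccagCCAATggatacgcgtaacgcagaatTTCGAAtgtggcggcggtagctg
Sgo2a: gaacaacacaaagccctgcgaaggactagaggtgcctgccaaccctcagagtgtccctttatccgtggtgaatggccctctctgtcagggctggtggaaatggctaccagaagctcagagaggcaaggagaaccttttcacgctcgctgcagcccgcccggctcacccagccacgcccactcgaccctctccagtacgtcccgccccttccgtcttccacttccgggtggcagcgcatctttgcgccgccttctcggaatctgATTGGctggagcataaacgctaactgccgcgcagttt
Cdca5: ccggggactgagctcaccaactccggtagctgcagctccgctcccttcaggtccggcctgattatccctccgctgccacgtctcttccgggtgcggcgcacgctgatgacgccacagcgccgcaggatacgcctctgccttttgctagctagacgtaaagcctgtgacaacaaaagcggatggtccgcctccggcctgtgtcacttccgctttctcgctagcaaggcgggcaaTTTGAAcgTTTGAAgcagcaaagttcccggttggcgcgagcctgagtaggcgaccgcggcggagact
Smc3: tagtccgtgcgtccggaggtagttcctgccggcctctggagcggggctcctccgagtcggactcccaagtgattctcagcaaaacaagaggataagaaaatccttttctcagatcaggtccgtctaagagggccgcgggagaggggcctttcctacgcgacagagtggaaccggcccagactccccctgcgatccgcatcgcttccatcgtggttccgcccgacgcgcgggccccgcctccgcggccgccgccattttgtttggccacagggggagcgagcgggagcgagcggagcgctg
Sgo1 held a CCAAT match and a CHR match just after the start, and Sgo2a held a CCAAT match there. Cdca5 held 2 CHR matches, which begin 17 and 9 bases before the start. In the count files Cdca5 begins 114 bases upstream of this RefSeq start, so by that annotation both matches lie after the start. For Sgo2a 2 windows were listed, and 1 of them is printed. The Smc3 window held none of these letters, and that of Smc1a, which is not printed, held a CCAAT match and an E2F match. Of 32851 promoter windows of this length, 19.2% held CHR letters, 37.4% held CCAAT letters and 2.26% held E2F letters, so CHR and CCAAT matches are common. None of the marked matches overlapped another. The CCAAT letters that both shugoshin windows held were also in that of Smc1a.

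Library totals ran from 6760510 to 10527915 counts in Apert and from 8631181 to 10834744 in WT, so 1 count was at most 0.162 CPM (counts per 1000000 of the library total after scaling by trimmed mean of M values). Among the 8 cartilage markers, the summed level ran from 33530.0 to 35944 CPM in Apert and from 31543 to 41916 CPM in WT, and none of them was at 0. Of these 8, 5 had negative log2 fold changes (median -0.22, lowest -0.67), 2 had all Apert libraries below all WT libraries, and none passed with edgeR, while 3 had an unadjusted p below 0.05 and Sox9 passed in DESeq2. Markers of muscle, epithelium, neurons and endothelium summed to at most 2.92 CPM in any library, with Myod1, Myog, Cdh1 and Krt14 at 0 counts in all 6. The 8 perichondrium and fibrous tissue markers summed to 2834 to 3093 CPM in Apert and 2073 to 2301 CPM in WT, and 2 of them, Col3a1 and Ogn, rose in the edgeR test across all genes, though neither did with library totals alone, after GC correction without the replicate block or with any library other than Apert replicate 1 left out. Of these 8 fibrous markers, 7 had positive log2 fold changes and 1 negative, 6 had an unadjusted p below 0.05, and Prrx1 also passed in DESeq2. Glial markers summed to 105 to 143 CPM in Apert and 150.4 to 202 CPM in WT. All 4 glial markers had negative log2 fold changes and none passed with edgeR, while 1 had an unadjusted p below 0.05 and Sox10 passed in DESeq2. Macrophage markers summed to 4.16 to 13.1 CPM in Apert and 4.33 to 7.04 CPM in WT, and erythroid markers to 48.0 to 54.7 CPM in Apert and 37.4 to 60.8 CPM in WT. Genes of the mitochondrial genome took 34.3% to 40.4% of counts in Apert and 28.8% to 30.2% in WT. The part of cartilage, fibrous, glial and mitochondrial RNA in the differences below was not tested.

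Among the ring subunits, the Apert libraries were somewhat higher, and none of the 4 genes passed the test across all genes. Rad21, the subunit that separase cuts, was at 175, 155 and 194 CPM in Apert replicates 1 to 3 and at 127, 141 and 132 CPM in WT replicates 1 to 3. Each Apert library lay above each WT library. The log2 fold change, Apert over WT, was 0.39 with a standard error of 0.14. Stag2, which binds RAD21 and is encoded on the X chromosome, was at 185, 205 and 191 CPM in Apert and 152, 145 and 155 CPM in WT. These groups did not overlap either, and the log2 fold change was 0.36 (standard error 0.13). Smc3 was at 316, 258 and 384 CPM in Apert and 251, 223 and 254 CPM in WT, with a log2 fold change of 0.40 (standard error 0.15). Its partner Smc1a was at 268, 207 and 312 CPM in Apert and 216, 214 and 199.6 CPM in WT, with a log2 fold change of 0.32 (standard error 0.15). For both SMC genes the spread lay mostly in the Apert group, where replicate 3 was highest and replicate 2 lowest, and for Smc1a replicate 2 lay below 2 WT libraries. Without Apert replicate 3 the log2 fold changes of Smc3 and Smc1a were 0.24 and 0.17.

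Nipbl, the loader, was at 360.3, 359 and 414 CPM in Apert and 335, 249.7 and 292 CPM in WT. The groups did not overlap, WT replicate 1 came closest, and the log2 fold change was 0.37 (standard error 0.14). In bulk tissue, more dividing cells and more RNA of these genes per cell cannot be told apart, here and in what follows.

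**Figure D1:**
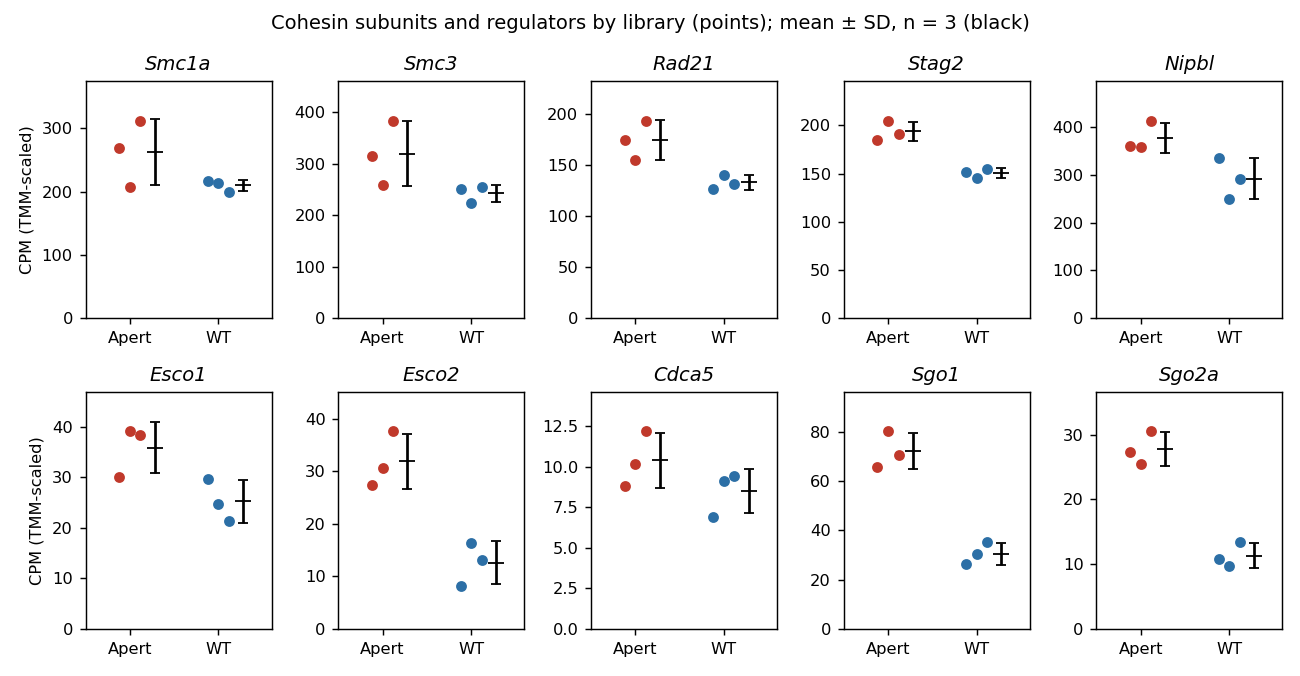
CPM, scaled by trimmed mean of M values, of each of the 10 genes in 3 Apert libraries (red, left) and 3 WT libraries (blue, right), each axis starting at 0. Black marks give mean ± SD (n = 3 each), and only Smc1a and Cdca5 have overlapping groups.

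Of the acetyltransferase genes, Esco2 had the larger fold change. Esco2, which acts on SMC3 at replication forks, was at 27.4, 30.6 and 37.6 CPM in Apert and at 8.23, 16.3 and 13.2 CPM in WT, from 225 to 276 counts per Apert library and 95 to 169 per WT library. Every Apert library was well above the highest WT library, and WT replicate 1 was the lowest of all. The mean was 31.9 ± 5.22 CPM in Apert and 12.6 ± 4.06 CPM in WT (SD, n = 3 each), a log2 fold change of 1.34 (standard error 0.25) or 2.53-fold. Esco1, which acetylates SMC3 outside replication as well, was at 30.0, 39.1 and 38.4 CPM in Apert and 29.7, 24.8 and 21.3 CPM in WT. Its lowest Apert library lay just above its highest WT library, both replicates 1, and its log2 fold change was 0.50 (standard error 0.20). Set against each other per exon length within each library, the ratio of Esco2 to Esco1 was 1.04, 0.894 and 1.12 in Apert and 0.316, 0.750 and 0.706 in WT. The transcripts were thus at about equal levels per length in Apert cartilage, whereas Esco1 was ahead in each WT library. The difference of this ratio between genotypes uses the contrast that chose Esco2 and was not tested.

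The shugoshin genes were higher in Apert cartilage by sizes close to that of Esco2. Sgo1, the centromere protector of dividing somatic cells, was at 65.6, 80.3 and 70.8 CPM in Apert and 26.3, 30.3 and 35.2 CPM in WT. The groups were far apart, with 437 to 662 counts per Apert library and 304 to 325 per WT library. Its mean was 72.2 ± 7.43 CPM in Apert and 30.6 ± 4.42 CPM in WT (SD, n = 3 each), a log2 fold change of 1.24 (standard error 0.18) or 2.36-fold. Sgo2a, the second shugoshin, known in mice mainly for protecting centromeric cohesin in meiosis, was at 27.3, 25.4 and 30.5 CPM in Apert and 10.8, 9.64 and 13.4 CPM in WT. Its groups were also far apart, with a log2 fold change of 1.30 (standard error 0.23) or 2.45-fold. The ratio of Sgo1 to Sgo2a per exon length was 3.12, 4.09 and 3.01 in Apert and 3.15, 4.07 and 3.40 in WT, so the groups overlapped. Against the ring subunit Rad21, Sgo1 stood at 0.355, 0.489 and 0.345 per length in Apert and 0.197, 0.202 and 0.251 in WT, without overlap. The difference of this ratio between genotypes uses the contrast that chose Sgo1 and was not tested.

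The Sgo2a values carry a limit of annotation. In the count files 2455 of its 4939 exon bases, 49.7%, also belong to exons of Kctd18 on the opposite strand, and fragments over shared bases were not assigned to 1 gene while strand was ignored. Kctd18 itself was at 22.9, 26.5 and 27.1 CPM in Apert and 23.3, 36.8 and 39.7 CPM in WT, with a log2 fold change of -0.38 (standard error 0.22; edgeR quasi-likelihood, adjusted p = 0.532). No library held a count of Sgo2b, another mouse shugoshin gene, a result that still permits up to 3 counts per library.

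Cdca5 encodes sororin, which binds acetylated cohesin and blocks its release. With all 6 libraries and no correction for GC content, its fold change was the smallest of the 10. Cdca5 was at 8.82, 10.2 and 12.2 CPM in Apert and 6.93, 9.16 and 9.42 CPM in WT, from 75 to 95 counts per library. The groups overlapped, and the log2 fold change was 0.29 (standard error 0.29). At this depth a difference of that size was within the spread between libraries.

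Counted together, Esco2, Sgo1 and Sgo2a passed the test across all genes (edgeR quasi-likelihood, adjusted p of at most 0.05), all 3 as higher in Apert, and the other 7 did not. Of all tested genes 0.398% passed as higher and 0.450% in either direction (53 higher, 7 lower), and since this contrast chose the genes nothing is read from the count. In 8 of the 10 genes all Apert libraries lay above all WT libraries, as in 8.92% of tested genes. The log2 fold change was positive for all 10, under every alternative run, with a median of 0.39 beside 0.01 for all tested genes. It was positive for 51.1% of all tested genes. Scaling by library totals alone moved the median of all genes to -0.14 and that of the 10 genes to 0.23, and gave 17 genes higher and 24 lower. The passes changed when a library was left out, which also leaves fewer libraries for the test. None of the 10 genes passed without Apert replicate 2, where 2 of all genes passed, or without WT replicate 3, where 0 did. Of the 10, only Sgo1 passed without Apert replicate 3 or without WT replicate 1, and Esco2 and Sgo1 passed without WT replicate 2. All 3 passed without Apert replicate 1. The log2 fold changes moved less, from 1.11 to 1.57 for Esco2, 1.14 to 1.35 for Sgo1 and 1.19 to 1.44 for Sgo2a with each library left out.

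The genes lie on several chromosomes (coordinates of the count files, mm10). Esco2 (ENSMUSG00000022034) spans chr14:65819038-65833994 on the minus strand, Sgo1 (ENSMUSG00000023940) chr17:53674786-53689333 on the minus strand and Sgo2a (ENSMUSG00000026039) chr1:57995971-58025899 on the plus strand. Smc3 and Cdca5 lie on chromosome 19, Rad21 and Nipbl on chromosome 15, Smc1a and Stag2 on the X chromosome and Esco1 on chromosome 18. Apart from Sgo2a, no gene of the 10 shared exon bases with another annotated gene.

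Levels can be compared between genes as CPM per kilobase of exon. In Apert cartilage the order was Smc3 (57.6 ± 11.3), Rad21 (48.5 ± 5.37), Smc1a (45.5 ± 9.20), Nipbl (42.9 ± 3.54), Stag2 (23.4 ± 1.21), Sgo1 (19.0 ± 1.95), Esco2 (7.95 ± 1.30), Esco1 (7.84 ± 1.10), Sgo2a (5.61 ± 0.514) and Cdca5 (4.88 ± 0.785 CPM per kilobase; SD, n = 3). The ranges of neighbours overlapped from Smc3 down to Nipbl, between Esco2 and Esco1 and between Sgo2a and Cdca5. In WT cartilage the order was Smc3 (43.8 ± 3.05), Rad21 (37.0 ± 2.09), Smc1a (36.4 ± 1.59), Nipbl (33.1 ± 4.82), Stag2 (18.2 ± 0.616), Sgo1 (8.03 ± 1.16), Esco1 (5.53 ± 0.924), Cdca5 (3.99 ± 0.641), Esco2 (3.14 ± 1.01) and Sgo2a (2.29 ± 0.391 CPM per kilobase; SD, n = 3). Here Smc3 stood apart, Rad21, Smc1a and Nipbl overlapped, and so did Cdca5 with Esco2 and Esco2 with Sgo2a. Counted over its 2484 unshared exon bases alone, Sgo2a would stand at 11.2 CPM per kilobase in Apert and 4.55 in WT, so its place in the order depends on the annotation. Within each library Smc3 and Smc1a kept a ratio of 1.23, 1.30 and 1.28 per length in Apert and 1.21, 1.08 and 1.32 in WT. Stag2 against Stag1, the other STAG subunit, was at 0.706, 0.787 and 0.724 in Apert and 0.740, 0.721 and 0.739 in WT. The groups overlapped in both ratios.

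A list of 40 other genes that act with cohesin was taken in the same fit, and 35 had enough counts. Bub1, the kinase that marks centromeric chromatin for shugoshin, rose, none fell, and 34 did not pass. Over these 35 genes the median was 0.31 on the log2 scale, against 0.01 for all tested genes. Both medians are without correction for GC content. Of the 35, 31 were positive and 4 negative, and in 11 genes all Apert libraries lay above all WT libraries. Of all tested genes 51.1% were positive, and in 8.92% all Apert libraries lay above all WT libraries. Bub1 was at 69.9, 56.8 and 65.9 CPM in Apert and 24.6, 40.6 and 34.7 CPM in WT, without overlap, and its log2 fold change was 0.95 (standard error 0.20; edgeR quasi-likelihood, adjusted p = 0.0381). It passed without Apert replicate 1 but not with any other library left out, nor with library totals alone or after GC correction, and its adjusted p over all alternatives ran from 0.000730 to 0.244. Of the PP2A subunits that shugoshins recruit, none passed, with the catalytic subunit gene Ppp2ca at a log2 fold change of 0.31 (standard error 0.15) and the regulatory subunit gene Ppp2r5c at 0.29 (standard error 0.18).

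Genes that help to establish cohesion at forks numbered 8, and none passed with edgeR, although 2 had an unadjusted p below 0.05 and 1 passed in DESeq2. Tipin, a partner of Timeless in fork protection, was at 40.7, 34.6 and 42.3 CPM in Apert and 24.2, 20.2 and 22.2 CPM in WT, without overlap. Its log2 fold change of 0.82 (standard error 0.19) had an adjusted p of 0.0708 with edgeR, and it passed in DESeq2, without the filter and with the replicate number as a block. Wdhd1, a replisome adaptor, was at a log2 fold change of 0.57 (standard error 0.19) and Chtf8, a subunit of an alternative clamp loader, at -0.53 (standard error 0.31). Chtf8 rested on single libraries, at -1.07 without Apert replicate 1 and -0.21 without Apert replicate 3. The release and regulation genes had 6 of 6 positive values and none passed with edgeR or DESeq2, with 1 at an unadjusted p below 0.05. Pds5a, which binds the ring with Wapl, was at a log2 fold change of 0.39 (standard error 0.14), Hdac8, the SMC3 deacetylase, at 0.41 (standard error 0.28) and Ctcf, which stops cohesin at loop boundaries, at 0.23 (standard error 0.15).

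Stag1 was at 326, 323 and 327 CPM in Apert and 255, 250.3 and 261 CPM in WT, without overlap, with a log2 fold change of 0.35 (standard error 0.13). Mau2, the partner of Nipbl in the loader, lay the other way at 35.3, 44.8 and 46.7 CPM in Apert and 47.7, 57.6 and 52.3 CPM in WT, without overlap, with a log2 fold change of -0.32 (standard error 0.18). Neither passed (edgeR, adjusted p = 0.292 and 0.528). The separase gene Espl1 was at a log2 fold change of 0.16, the securin gene Pttg1 at 0.54 and the mitotic kinase gene Plk1 at 0.40, with standard errors of 0.32, 0.44 and 0.31, and Espl1 turned below 0 without replicate 1 of either genotype. Plk1 was at 0.08 without Apert replicate 1 and at 0.69 without WT replicate 2. In the chromosomal passenger complex, which works beside shugoshins at the inner centromere, Aurkb was at 0.83 (standard error 0.29), Cdca8 at 0.57 (0.24) and Incenp at 0.31 (0.29), and none passed with edgeR or DESeq2, with 2 at an unadjusted p below 0.05. Aurkb passed in edgeR without the filter (adjusted p = 0.0328), and its adjusted p over all alternatives ran up to 0.615. Incenp was at 0.04 without WT replicate 1 and at 0.58 without WT replicate 2. The exons of Chtf8, Ctcf, Ppp2ca and Cdca8 share bases with other annotated genes, so their values are less certain. Of 6 germ-line cohesin and shugoshin genes only Stag3 had enough counts, and Rad21l had 0 counts in every library.

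**Figure D2:**
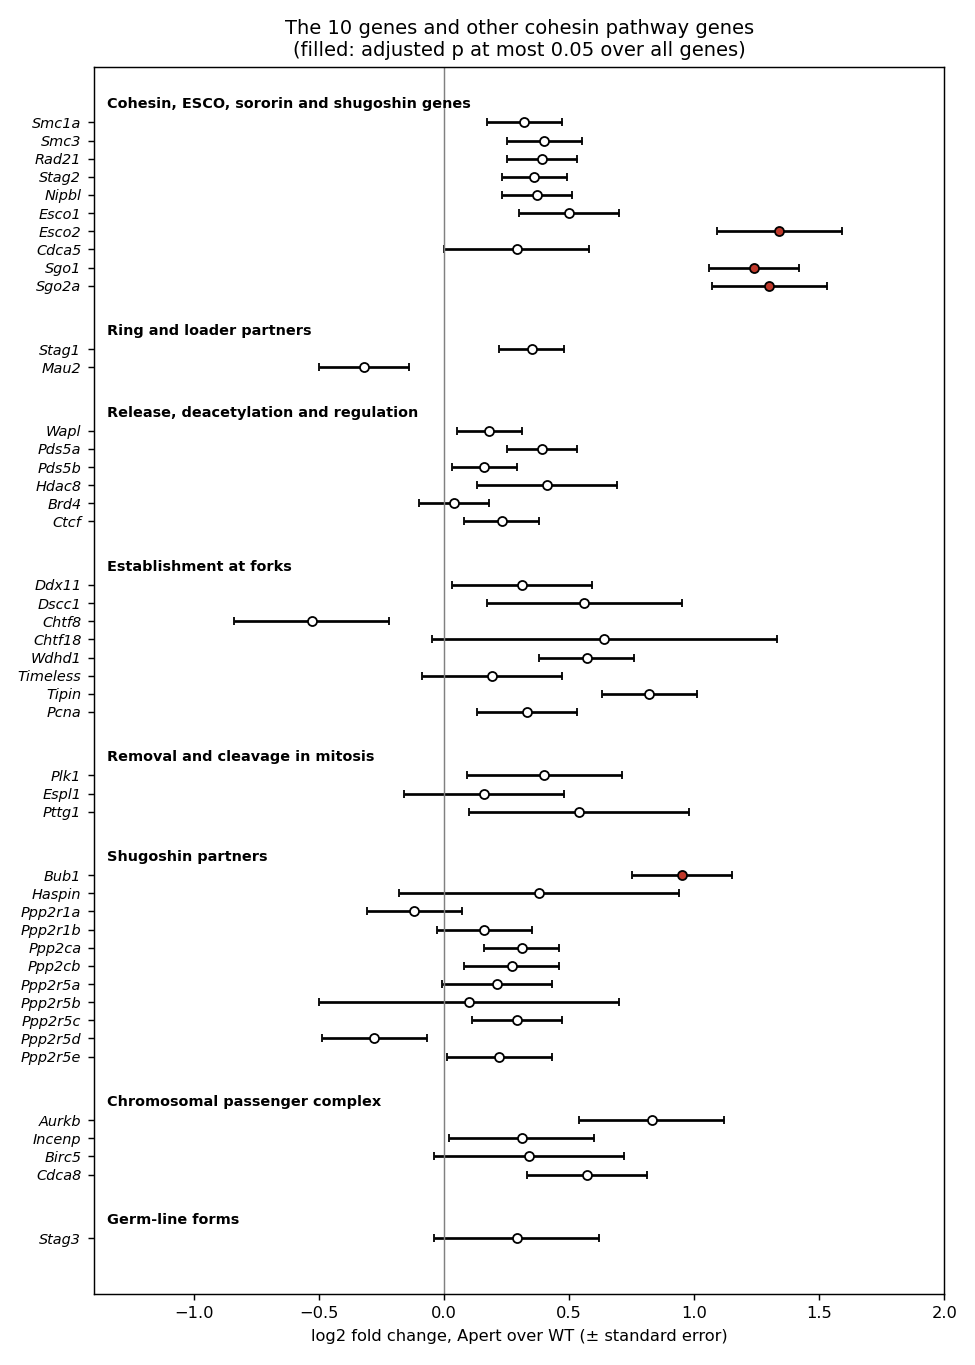
Log2 fold change, Apert over WT, with its standard error (bars) for the 10 genes at the top and for 35 other cohesin pathway genes by role below. Filled points passed the test across all genes: Esco2, Sgo1 and Sgo2a, whose contrast also chose them, and Bub1, while Mau2, Chtf8, Ppp2r1a and Ppp2r5d lie left of 0.

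The mitotic and replication genes of the same libraries give the setting of these values. Of 20 mitosis genes 11 rose and none fell, with a median log2 fold change of 0.89, and 3 of them (Bub1, Aurkb and Plk1) are also in the cohesin pathway list. All 20 had positive values under every alternative run, but fewer passed: 5 with library totals alone, 1 after GC correction and 10 after GC correction with the replicate number as a block, 2 and 1 without Apert replicate 2 and 3, and 3, 7 and 0 without WT replicate 1, 2 and 3. Of 20 replication genes none passed with edgeR, 5 had an unadjusted p below 0.05, 1 passed in DESeq2, and their median was 0.22. The mean of the mitosis list, in log2 CPM relative to the mean of all libraries, was 0.40, 0.33 and 0.52 in Apert and -0.74, -0.11 and -0.39 in WT. The replication list was at 0.20, 0.10 and 0.04 in Apert and -0.42, 0.16 and -0.09 in WT, with overlap. On this scale Esco2, at 0.48, 0.64 and 0.93 in Apert and -1.23, -0.26 and -0.56 in WT, had the WT libraries in the same order as both lists, and the Apert libraries in the order of neither. Sgo1 was at 0.49, 0.78 and 0.60 in Apert and -0.82, -0.62 and -0.41 in WT, and Sgo2a at 0.62, 0.53 and 0.78 in Apert and -0.69, -0.86 and -0.39 in WT. The WT libraries of both shugoshin genes followed the order of neither list. In Apert, Sgo2a had the libraries in the same order as the mitosis list, and Sgo1 in the order of neither.

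Taken relative to the mitosis list in each library, the difference of Apert minus WT was 0.54 for Esco2, 0.41 for Sgo1 and 0.46 for Sgo2a (log2 scale). Esco2 was then at 0.08, 0.31 and 0.42 in Apert and -0.49, -0.15 and -0.17 in WT, and Sgo1 at 0.09, 0.45 and 0.08 in Apert and -0.09, -0.51 and -0.02 in WT, still without overlap. The other 7 genes lay below the list, with differences of -0.53 for Smc1a, -0.45 for Smc3 and Nipbl, -0.44 for Rad21, -0.47 for Stag2, -0.32 for Esco1 and -0.54 for Cdca5. These values use the contrast that chose the genes and are not tested.

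**Figure D3:**
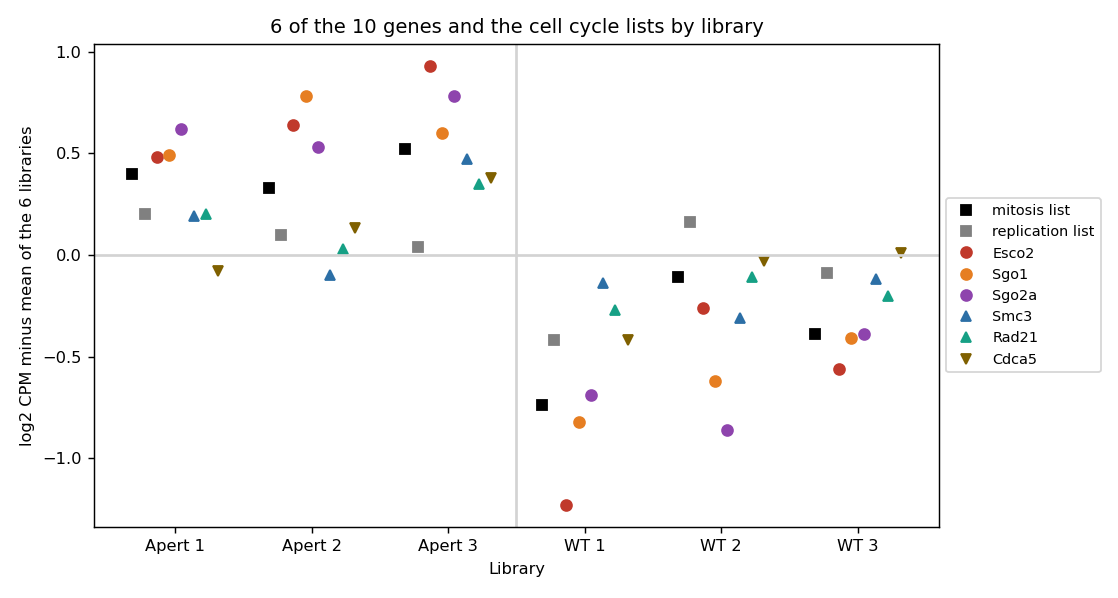
Log2 CPM minus the mean of the 6 libraries for the mitosis and replication lists (squares), for Esco2, Sgo1 and Sgo2a (circles), Smc3 and Rad21 (upward triangles) and Cdca5 (downward triangles), Apert libraries left and WT libraries right. Esco2, Sgo1 and Sgo2a lie between 0.48 and 0.93 in Apert and between -1.23 and -0.26 in WT, a wider gap than that of the ring genes.

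Variation inside the genotypes is a measure that the choice of genes did not use. Over the 6 libraries the log2 CPM of Esco2, Sgo1 and Sgo2a correlated with each other at Pearson r of 0.89 to 0.96, values that hold the difference between genotypes. Once each genotype's mean was removed, r among them was 0.04 to 0.54. For Smc1a, Smc3 and Rad21 it was 0.87 to 0.93 over the libraries and 0.70 to 0.88 without the genotype means. The remaining ring gene, Stag2, went the other way without the genotype means, at r = -0.72 with Smc1a, -0.37 with Smc3 and -0.73 with Rad21. For Esco2 with Cdca5, r was 0.85 over the libraries and 0.90 without the genotype means. These values describe 6 libraries that share 2 genotypes and differ in depth, and no test was made.

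Among 7148 genes with a mean of at least 10 CPM, those most like Esco2 over the 6 libraries were Nusap1 (r = 0.998), Eri2 (0.995), Mki67 (0.994), Kif23 (0.993) and Kif14 (0.992). Nusap1 acts on spindle microtubules, Mki67 coats mitotic chromosomes, and Kif23 and Kif14 are motors of cell division. Without the genotype means the nearest to Esco2 were Fancd2, a DNA crosslink repair gene, Serpina3n and again Nusap1 (r = 0.996 each). Casp8 (0.995) and Kat7 (0.994) came next. For Sgo1 the nearest were Mpp6, Dbf4, Cdc27, Trip13 and Hif1a (r = 0.991 to 0.985), and Setd5, Mga, Usp34 and Nckap1 were among the nearest to Sgo2a (r = 0.991 each). None of these genes was among the nearest 5 without the genotype means. Their r was then 0.76 to 0.94 with Sgo1 and 0.82 to 0.90 with Sgo2a. For Cdca5, Man1a, Tk1 and Col24a1 were among the nearest 5 by either measure, with r from 0.994 to 0.998. With 6 libraries many genes reach such values.

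All of the 10 genes but Cdca5 had a GC content below that of most genes. The GC content of the longest transcript was 36.7% in Esco2, 40.5% in Sgo2a and 41.5% in Sgo1. In all, 9 of the 10 lay under the median of tested genes, 48.9%. Fold changes of all genes moved with GC content in these libraries. The median log2 fold change was 0.25 for 934 genes below 40% GC, 0.15 from 40% to 45%, 0.04 from 45% to 50%, -0.10 from 50% to 55% and -0.27 at 55% and above. After a correction for GC content in each library, the log2 fold change was 1.06 for Esco2 (standard error 0.25), 1.05 for Sgo1 (0.17) and 1.09 for Sgo2a (0.22). It was 0.10 for Stag2, 0.20 for Nipbl, 0.23 for Smc3, 0.25 for Esco1, 0.26 for Rad21 and 0.27 for Smc1a, and Cdca5, at 51.5% GC, moved up to 0.37. In the other cohesin pathway list Stag1 moved from 0.35 to 0.16, Pds5a from 0.39 to 0.24 and Tipin from 0.82 to 0.62. Some genes of that list moved up, among them Plk1 from 0.40 to 0.64 and Aurkb from 0.83 to 0.95. With the correction 5 genes passed in all, among them Sgo1 but not Esco2, Sgo2a or Bub1. With the correction and the replicate number as a block, 76 genes passed, among them Esco2, Sgo1 and Sgo2a but not Bub1. The labels give no litter or day that equal replicate numbers share, so the numbers are not read as pairs.

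**Figure D4:**
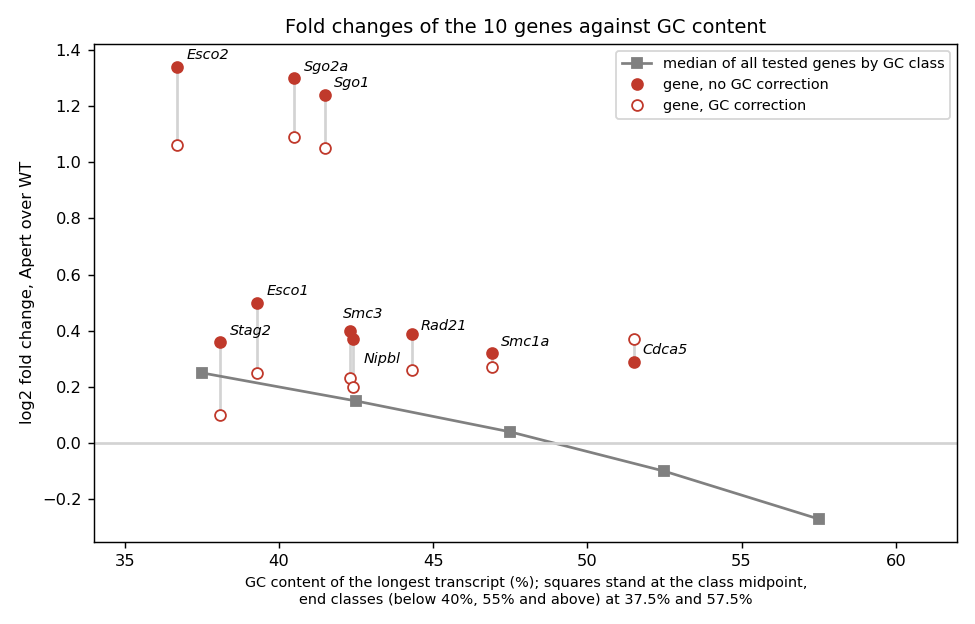
Log2 fold change, Apert over WT, of the 10 genes against the GC content of their longest transcript, without (filled) and with (open) correction for GC content. Grey squares give the median of all tested genes by GC class, from 0.25 below 40% to -0.27 at 55% and above.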

How the data were processed

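RNA-seq counts of 3 Apert and 3 WT libraries were used, 1 per mouse, made per the labels' protocols from 15 ng of RNA amplified with a NuGEN kit and tagged with Nextera XT. The deposited values are whole-number fragment counts per Ensembl gene, made by the authors with featureCounts 1.4.4 over exons of Ensembl release 75 without strand, per the file headers. The tools cutadapt and STAR 2.5.2b, on build mm10, are listed in the submitters' processing notes. No molecular identifiers are described, so limits from counts cover counting error only.

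Identifiers were matched to symbols for 37607 of 38924 genes. In R 4.3.3, edgeR 4.0.16 filtered genes with filterByExpr, scaled by TMM and tested genotype by quasi-likelihood F test with Benjamini-Hochberg adjustment over 13333 genes at 0.05. The procedure was tested on simulated data. Standard errors are the log2 fold change divided by the square root of F. CPM are TMM-scaled. GC content came from the longest GENCODE M21 transcript, and curves of each library's deviation on GC were fitted with mgcv 1.9.3 for 13192 genes. Alternatives were other scalings, filters, DESeq2 1.42.0, limma-voom (limma 3.58.1), no mitochondrial genes, the replicate block, GC correction, and each library left out with the filter rerun.

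The 10 genes and all lists were chosen with earlier results of these data known. Named genes were the 10 genes, called genes of the cohesin pathway list or its members with the smallest p by role, and the 5 genes most like Esco2, Sgo1, Sgo2a and Cdca5, predicted genes passed over; 1 of these is not reported here. Kctd18 was added after its values were seen.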

Additional observations from a re-analysis of the deposited data

How the results depend on the processing

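The number of genes called, 60, was 247 with no filter, 207 in DESeq2, 172 with the replicate number as a block (replicate block), 5 after GC correction and 0 to 229 with each library left out. The 0 came without WT replicate 3, where edgeR gave 1376 genes with an unadjusted p below 0.05. The 3 called among the 10 genes became 1 after GC correction, stayed at 3 after GC correction with the replicate block, where 76 genes passed in all, and became 0 to 3 with each library left out. The 1 called among the other cohesin pathway genes became 0 with library totals alone, after GC correction and after GC correction with the replicate block, 2 in DESeq2 and with the replicate block, 3 with no filter, and 0 to 1 with each library left out. Equal replicate numbers mark no shared litter or day in the labels, so the numbers are not read as pairs. Deviations of libraries with equal numbers correlated at 0.19, 0.02 and 0.09, and those with unlike numbers at -0.15 to 0.07. Of 170 values of the 10 genes under other settings none changed sign, 159 moved by less than 1 SD between replicates and 11 by more. With each library left out, the log2 fold change of Espl1 ran from -0.06 to 0.31, below 0 without WT replicate 1 (-0.06) and without Apert replicate 1 (-0.03). The cause of these changes was not tested. The depth limits Cdca5 most, with under 100 counts in each library.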
